A study of Mus musculus with 2 samples.

Results

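The SLC25 family is the set of genes for mitochondrial carriers, proteins of the inner mitochondrial membrane that exchange metabolites between the cytosol and the matrix. Each carrier has a narrow choice of cargo, such as ADP and ATP, phosphate, citrate, amino acids, folate or coenzyme A. In red cell precursors the family is best known for the carriers that bring iron and glycine to the matrix for heme synthesis, Slc25a37 (mitoferrin 1) and Slc25a38. These 2 genes are not members here and appear below only as relatives. Members were all array probes whose gene name begins with Slc25a, apart from those 2 genes. They came to 40 genes of 36315 genes and lincRNA intervals on the array, measured by 47 probes in 56 spots per array.

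Each of the 2 arrays held total RNA of 2 kinds of cells, both Lin- erythroid progenitors taken from E14.5 fetal livers of C57BL/6 mice and sorted as GFP positive. One kind overexpressed ESlncRNA, a long noncoding RNA, after transduction (Cy5), and the other had been transduced with vector (Cy3). The labels do not say how many embryos were pooled or whether the 2 replicates came from separate cultures. ESlncRNA RNA carried Cy5 on both arrays, so a dye effect of a probe cannot be told apart from the difference between the conditions. The level of ESlncRNA itself was not analysed here.

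All ratios below are log2 ratios of ESlncRNA over vector, so a positive value means higher with ESlncRNA. A gene was called when the limma fit over 26790 probes gave a Benjamini-Hochberg adjusted p under 0.05. The 2 arrays lay close together. Over 120 probes printed in 10 spots, probe means differed between arrays by a median of 0.024 (log2), and the spread between spots alone gives 0.0247. Each condition may therefore stand for 1 RNA sample, and the p-values reflect array-to-array spread that may be technical. A large share of all genes passed. Of 19870 genes measured, 63% were called, 26.3% higher and 36.8% lower.

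Markers of other blood and liver cells were lower with ESlncRNA, and erythroid markers were higher. All 11 granulocyte markers measured were lower, with a summed level of 16.08 and 16.34 (log2 intensity) in the ESlncRNA channel, against 20.15 and 20.30 in the vector channel. All 11 macrophage markers measured were lower, with 11.53 and 11.50 in the ESlncRNA channel and 14.60 and 14.62 in the vector channel, and 4 of them were not well above background with ESlncRNA. All 8 megakaryocyte markers and 5 of 6 markers each of endothelial or stromal cells and of hepatocytes were also lower. Of 13 erythroid markers 11 were higher, and their summed level was 19.38 and 19.20 with ESlncRNA, against 18.66 and 18.41 with the vector. Of 3 lymphocyte markers measured 2 were lower and 1 was higher, and the other 4 were not kept. The part of these shifts in the carrier results was not tested. In such bulk RNA, fewer cells of a type and less RNA per cell cannot be told apart.

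Of the 40 carrier genes, 35 had a probe that passed the background filter on both arrays (at least 1 channel well above background). Of these, 14 were higher with ESlncRNA, 11 were lower and 10 did not pass. The 71.4% called stood beside 63% of all genes, and a share so near the background is no result about the carriers. The median carrier ratio was -0.01, against -0.03 for all genes. Over all genes 26.3% were called higher and 36.8% lower, and the cargo groups and lists below were not tested against these shares. At least 1.5-fold on both arrays, 1 carrier was higher (Slc25a21) and 4 were lower (Slc25a24, Slc25a27, Slc25a29 and Slc25a45). Among all genes 3.24% were that much higher and 13.5% that much lower. Slc25a42 missed this size on 1 array, with 0.57 and 0.65. When the 4 channels were fitted as separate samples, without the array as a block, 8 carriers were higher and 10 lower. Over all genes that fit called 17.3% higher and 28.8% lower.

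**Figure D1:**
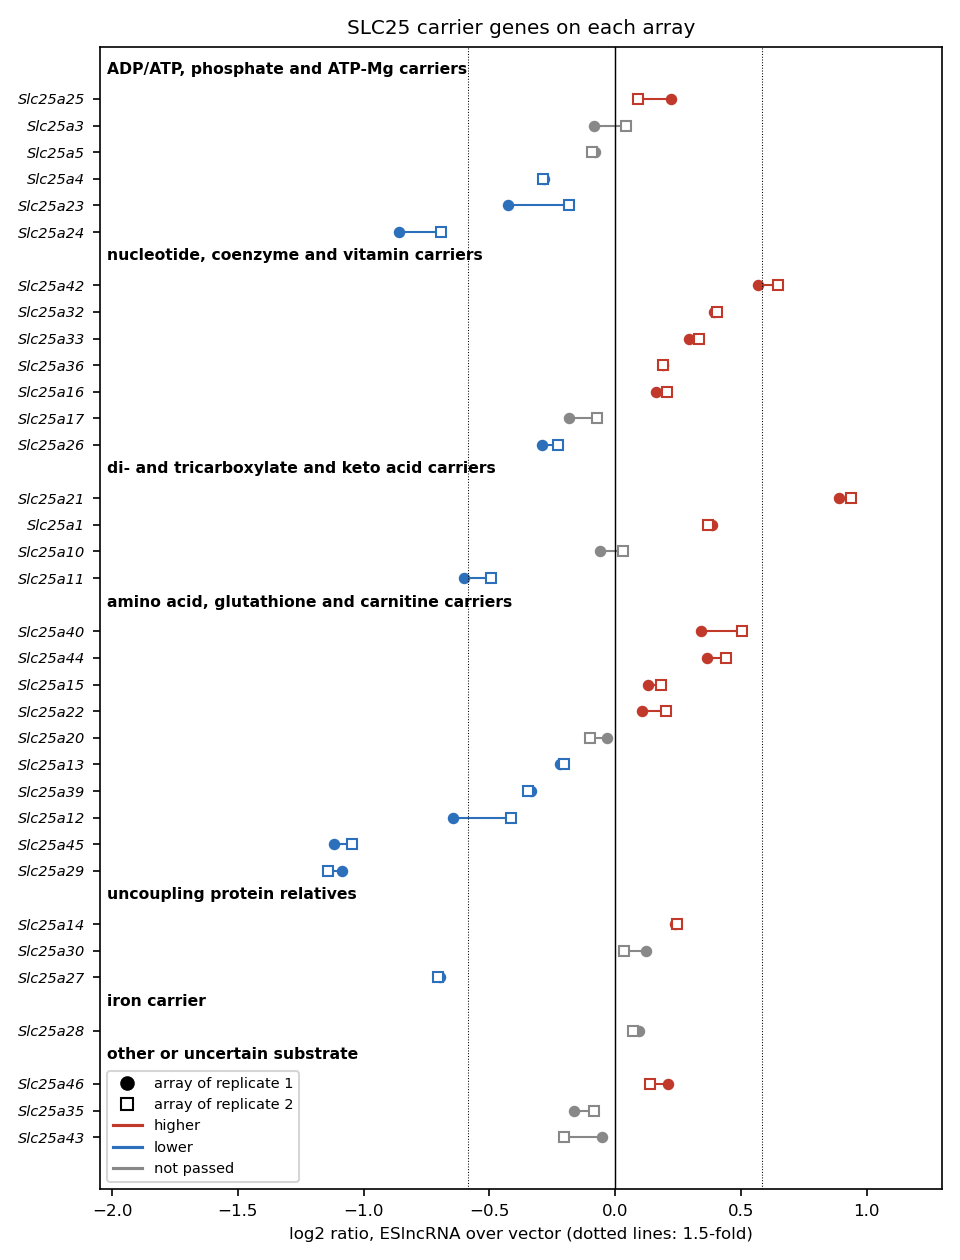
Log2 ratio of ESlncRNA over vector (horizontal axis) for the 35 SLC25 genes measured, less 1 that is not reported here, grouped by cargo. Filled circles are the array of replicate 1, open squares that of replicate 2, colours give the call, and dotted lines mark 1.5-fold. Slc25a21 lies farthest to the right, with 0.89 and 0.94, and Slc25a29 and Slc25a45 lie beyond -1 on both arrays.

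The carriers of ADP, ATP and phosphate feed the ATP synthase and export its product. Of 6 such genes measured, 3 were lower, 1 was higher and 2 did not pass. Slc25a4, the ADP/ATP exchanger also called ANT1, had an intensity of 15.00 and 14.95 (log2) in ESlncRNA cells on the arrays of replicates 1 and 2, against 15.28 and 15.23 in vector cells. Both ESlncRNA values lay below both vector values. The mean ratio was -0.28 ± 0.0018 (SD, n = 2 arrays; adjusted p = 0.00243, limma), and it was 0.60 and called higher when ratios were centred on the median in place of loess. Its probe was printed in 10 spots per array, which ran between -0.41 and -0.17 on the array of replicate 1 and between -0.36 and -0.21 on that of replicate 2. All of these spots were below 0.

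The Slc25a4 probe is shown because its 10 spots make it the member measured most often. It lies at chr8:47292828-47292887 of mm9 on the minus strand and reads, 5′ to 3′:
Slc25a4: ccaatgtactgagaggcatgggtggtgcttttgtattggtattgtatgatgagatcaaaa

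Slc25a5, the sister exchanger ANT2, had 14.73 and 14.85 in ESlncRNA cells, against 14.81 and 14.94 in vector cells. Its ratio of -0.09 ± 0.0086 did not pass (adjusted p = 0.163, limma). Slc25a3, the phosphate carrier, had 13.87 and 14.24 in ESlncRNA cells and 13.95 and 14.20 in vector cells. The 2 arrays gave opposite signs and a mean of -0.02 ± 0.091 (adjusted p = 0.774, limma). The other Slc25a3 probe gave -0.03. The array files list further transcripts under the Slc25a5 probe and under the brighter Slc25a3 probe, so copies of these genes may add to their signal. Both genes were above 0 with Agilent's processed signals and were called higher after median centring.

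The ATP-Mg/phosphate carriers, which calcium regulates, gave 2 genes called lower and another without a settled direction. Slc25a24 had 8.91 and 9.07 in ESlncRNA cells, against 9.77 and 9.76 in vector cells. Its channels did not overlap, and the mean ratio was -0.78 ± 0.12 (1.71-fold lower; adjusted p = 5.68e-05, limma). Slc25a24 was lower in each of 9 ways of processing, some of which change only the filter or the fit and not its ratio. Slc25a23 was not well above background in the ESlncRNA channel on either array, and was at least 1.20-fold lower than in the vector channel (adjusted p = 0.00844, limma). That call was lost with a normexp offset of 0 (adjusted p = 0.0611, limma) and in the authors' deposited log2 values (adjusted p = 0.0686, limma). Slc25a25 had 1 probe called higher (0.16) and another that did not pass (-0.14, adjusted p = 0.0646, limma), so its direction rests on the choice of probe, and the call was lost in 5 of 9 ways of processing. Slc25a31, the testis ADP/ATP carrier, and Slc25a41 were not well above background in either channel.

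**Figure D2:**
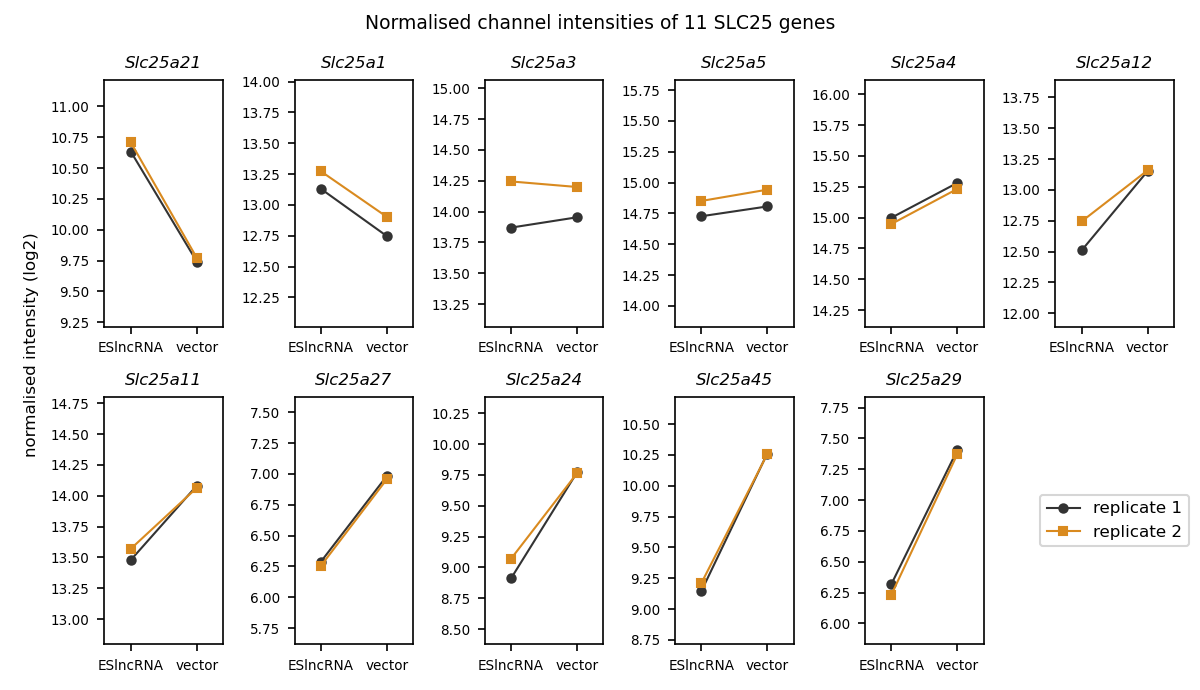
Normalised intensity (log2, vertical axes, each spanning the same range of 2 units) of the 11 SLC25 genes named by rule, in the ESlncRNA channel (left) and the vector channel (right) of each array. Lines join the channels of 1 array. Slc25a21 is higher in the ESlncRNA channel on both arrays, and Slc25a24, Slc25a27, Slc25a29 and Slc25a45 are lower.

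Among carriers of carboxylates and keto acids, 2 of 4 genes were higher and 1 was lower. Slc25a21 carries 2-oxoadipate, an intermediate of lysine breakdown, and 2-oxoglutarate, and had the largest positive ratio of the family. It had 10.63 and 10.71 in ESlncRNA cells, against 9.74 and 9.77 in vector cells, a ratio of 0.91 ± 0.032 (1.88-fold; adjusted p = 1.09e-05, limma). The channels were far apart on both arrays. Slc25a1, the citrate carrier that supplies cytosolic acetyl-CoA, had 13.13 and 13.27 in ESlncRNA cells and 12.75 and 12.90 in vector cells. Its ratio was 0.38 ± 0.0096 (adjusted p = 0.000675, limma). Both genes were higher under each of 9 ways of processing. Several of these do not change their ratios, and median centring and processed signals raised them, so a change of sign was hardly possible there.

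Slc25a11, which exchanges 2-oxoglutarate for malate in the malate-aspartate shuttle, moved the other way. It had 13.48 and 13.57 in ESlncRNA cells, against 14.08 and 14.06 in vector cells, a ratio of -0.55 ± 0.076 (adjusted p = 0.000182, limma) that turned to 0.20 after median centring. Slc25a12, the aspartate/glutamate carrier of the same shuttle, had 12.51 and 12.74 in ESlncRNA cells and 13.15 and 13.16 in vector cells. Its ratio was -0.53 ± 0.16 (adjusted p = 0.000637, limma), and 0.14 without a call after median centring. Its paralog Slc25a13 had -0.21 (adjusted p = 0.00864, limma), which likewise changed sign, to 0.38, after median centring, and did not pass with processed signals or without the replicate block. The shuttle carriers were thus lower with loess, and this direction depended on the normalisation. Slc25a10, the dicarboxylate carrier, had -0.01 and did not pass.

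Of 10 carriers of amino acids, glutathione and carnitine measured, 4 were higher and 5 lower. Slc25a29, a carrier of basic amino acids, was not well above background with ESlncRNA on either array, with 6.32 and 6.23, against 7.41 and 7.37 in vector cells. With loess it was at least 2.15-fold lower (adjusted p = 4.42e-06, limma). Median centring gave a ratio of -0.98, against -1.11 with loess. Slc25a45 had 9.14 and 9.21 in ESlncRNA cells, against 10.26 and 10.26 in vector cells, a ratio of -1.08 ± 0.050 (2.12-fold lower; adjusted p = 5.53e-06, limma). Slc25a29 and Slc25a45 were the carriers with the largest negative ratios. Both were lower in every way of processing that tested them, some of which do not change their ratios. Slc25a29 was absent from the test that required both channels above background.

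The higher genes of that group had smaller ratios. Slc25a44, a carrier of branched-chain amino acids, had 0.40 on its brighter probe and 0.25 on the other, both called higher. Slc25a15, the ornithine carrier of the urea cycle, had 0.16, and Slc25a22, a glutamate carrier, had 0.15, and both passed. Slc25a15 lost its call in 2 of 9 ways of processing and Slc25a22 in 4, the fit without the replicate block among them for both (adjusted p = 0.240 and 0.134, limma). The glutathione carriers Slc25a40 and Slc25a39 went in opposite directions. Slc25a40 was higher, with 0.34 and 0.50, and Slc25a39 was lower, with -0.33 and -0.35. The other Slc25a40 probe was too dim to be kept, and had -0.022 and -0.064 before the filter. Slc25a39 was 0.095 and not called after median centring, and was not called with processed signals, but the difference of Slc25a40 minus Slc25a39 stayed between 0.64 and 0.94 in 9 ways of processing. Slc25a20, which brings acylcarnitines into the matrix for fatty acid oxidation, had -0.07 and did not pass. Slc25a2 and Slc25a18 were not well above background in either channel.

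Of 8 carriers of nucleotides, coenzymes and vitamins, 5 were called higher, 1 was lower and 2 did not pass, with a median of 0.19. Among all genes 26.3% were called higher and 36.8% lower, and the group itself was not tested. Slc25a42, a carrier of coenzyme A, had 0.57 and 0.65 on the 2 arrays (adjusted p = 9.24e-05, limma). Slc25a32, the folate and FAD carrier, had 0.39 and 0.41 (adjusted p = 0.000511, limma). Slc25a33 and Slc25a36, carriers of pyrimidine nucleotides, had 0.31 and 0.19, and Slc25a16 had 0.18. Slc25a42, Slc25a32 and Slc25a33 were higher in each of 9 ways of processing. Several of these change only the filter or the fit and not the ratio, and median centring and processed signals raised it for these genes. Slc25a36 lost its call in 2 of the 9 ways and Slc25a16 in 3, the fit without the replicate block among them for both. Slc25a17, a peroxisomal member, had -0.13 and did not pass.

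Slc25a26, which carries the methyl donor S-adenosylmethionine, was the 1 lower gene of that group, with -0.26 on its brighter probe and a value of -0.02 that did not pass on the other. The brighter probe gave -0.06 with processed signals (adjusted p = 0.309, limma) and turned to 0.17 after median centring (adjusted p = 0.0513, limma), without a call in either. The dimmer Slc25a26 probe, one of the Slc25a33 probes and the Slc25a39 probe span more genome than their own 60 bases, so they cross an intron and read spliced RNA. The Slc25a33 probe of that kind gave 0.31, as did the probe that matches 60 consecutive bases of the genome. The 3 sequences are shown because they report joined exons, which the location of the other probes does not show. They lie at chr6:94548392-94549185 (plus strand), chr4:149123432-149126565 (minus strand) and chr11:102266350-102267022 (minus strand) of mm9.
Slc25a26: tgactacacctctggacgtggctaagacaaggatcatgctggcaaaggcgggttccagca
Slc25a33: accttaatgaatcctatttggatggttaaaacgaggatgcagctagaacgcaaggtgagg
Slc25a39: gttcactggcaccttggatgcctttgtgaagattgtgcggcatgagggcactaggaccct

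The relatives of the uncoupling proteins gave 1 call in each direction among 3 genes. Slc25a27, also called UCP4 and best known from brain, was not well above background with ESlncRNA on either array, with 6.29 and 6.26, against 6.98 and 6.96 in vector cells. With loess it was at least 1.62-fold lower, which is also its measured difference (adjusted p = 3.67e-05, limma). Median centring gave a ratio of -0.61, against -0.70 with loess. Slc25a14 was higher, with 0.24 and 0.25, and Slc25a30 had 0.08 and did not pass. Slc25a28, mitoferrin 2, which carries iron, had 0.08 and did not pass (adjusted p = 0.178, limma). Of the genes of other or uncertain cargo, Slc25a46, an outer membrane protein, was called higher on its brighter probe (0.17) and not on the other (-0.01), and the call was lost in 5 of 9 ways of processing. Slc25a35 and Slc25a43 had -0.12 and -0.13 and did not pass, and Slc25a34 was not well above background.

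In all, 10 carrier pairs with shared cargo or ancestry were set side by side, chosen after the members' values were seen and not tested. In 3 of them Slc25a23, Slc25a27 or Slc25a29, which have only a bound with ESlncRNA, is a partner, and no difference is given. The difference kept its sign in 9 ways of processing for 5 of the other 7, among them Slc25a40 minus Slc25a39. Several of these ways change only the filter, the probe averaging or the fit. A gene with 1 probe keeps its ratio in them, so its sign could not change there. Slc25a24 minus Slc25a25 was -0.93. Slc25a28 minus the relative Slc25a37 was 0.63, Slc25a12 minus Slc25a13 -0.32 and Slc25a4 minus Slc25a5 -0.20. These values take the brighter probe of Slc25a25 and of Slc25a37. The other probe of Slc25a25 had -0.14 and that of Slc25a37 had -0.17, and neither passed. Slc25a33 minus Slc25a36 and Slc25a14 minus Slc25a30 each changed sign in 1 way of processing.

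**Figure D3:**
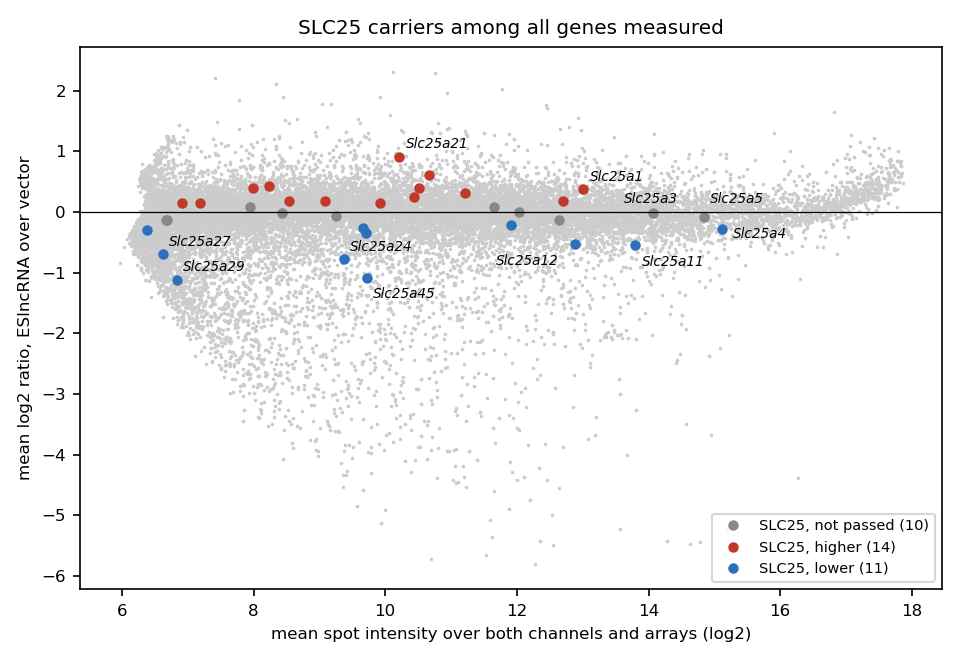
Mean log2 ratio of ESlncRNA over vector (vertical axis) against mean spot intensity on the log2 scale (horizontal axis) for all 19870 genes in grey and the 35 SLC25 genes in colour. The carriers lie within the range from -1.11 to 0.91, well inside the spread of all genes, which reaches -5.81.

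The normalisation moved the carriers by unequal amounts. Median centring took the bright Slc25a4 from -0.28 to 0.60, but the dim Slc25a27 only from -0.70 to -0.61. Loess sets the ratio to about 0 at each intensity, while centring on the median uses 1 shift per array. The median of all genes was then 0.34, against -0.03 with loess, and 0.11 with Agilent's processed signals. After median centring 25 carriers were higher and 5 lower, so that 83.3% of the carriers called were higher, against 56% with loess. Over all genes the same share was 77.5% and 41.7%, and 59.2% with processed signals. Slc25a4, Slc25a11 and Slc25a13 were called lower with loess and higher after median centring. Of the 35 carriers, 8 were higher in every way of processing (Slc25a1, Slc25a14, Slc25a21, Slc25a32, Slc25a33, Slc25a40, Slc25a42 and Slc25a44) and 4 were lower in every one that tested them (Slc25a24, Slc25a27, Slc25a29 and Slc25a45). The same count was not made over all genes, so it is no result about the carriers as a family. Median centring and processed signals also raised the median of all genes, so the 8 higher and 4 lower were not put to an equal test. Several other ways leave the ratio of a gene with 1 probe unchanged.

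**Figure D4:**
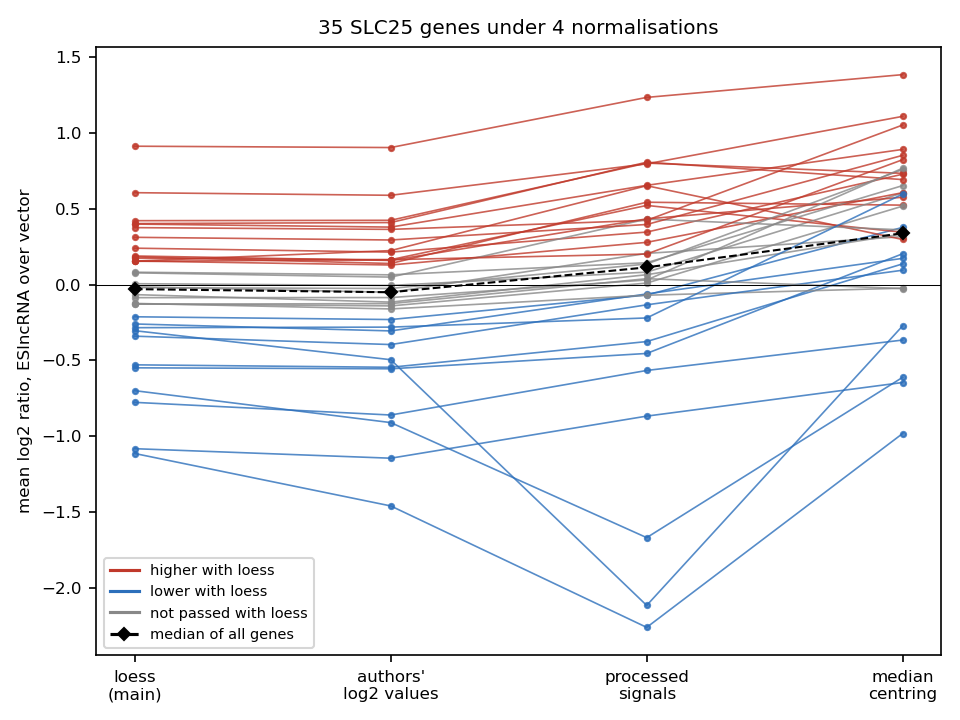
Mean log2 ratio (vertical axis) of the 35 SLC25 genes with loess, in the authors' deposited log2 values, with Agilent's processed signals and after median centring; colours give the call with loess. The dashed line is the median of all genes, which is -0.03 with loess and 0.34 after median centring, where most carriers lie above 0.

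The other genes of the carrier system were examined through lists. Beside the counts of each list stand the 26.3% of all genes called higher and the 36.8% called lower. Of 7 relatives measured, 2 were higher and 4 lower. Slc25a38, the glycine carrier of heme synthesis, had 0.50 and 0.56 (adjusted p = 0.000159, limma), and Mtch1, an outer membrane relative, had -0.47 and -0.39 (adjusted p = 0.000488, limma). Slc25a37, mitoferrin 1, was lower with a mean of -0.55, and its other probe had -0.17 and did not pass. Of 16 genes that import carriers into the inner membrane, 6 were higher and 4 lower, with a median of -0.02. Agk, a subunit of the TIM22 translocase, had a mean of -0.48, and Timm29, another subunit, had 0.27, and both passed. Of 16 other mitochondrial channel and transport genes, 3 were higher and 4 lower, with Sfxn3 at -0.82, which passed.

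The enzymes that work on the carriers' cargo also had calls in both directions, as all genes did. Of 24 genes of the citric acid cycle and pyruvate metabolism, 6 were higher and 6 lower, and Idh2, the mitochondrial NADP isocitrate dehydrogenase, had -1.38 while Pcx, pyruvate carboxylase, had 0.70. Among 9 genes of the malate-aspartate shuttle and transaminases 4 were higher and 3 lower. Gls2, a glutaminase, had 1.25 and Glud1, glutamate dehydrogenase, had -0.64, and both passed. Of 7 folate and one-carbon enzymes measured 4 were higher and 1 lower, and Mthfd2 (0.74) and Mthfd1 (0.49) were both called higher. The lower gene was Shmt1, the cytosolic serine hydroxymethyltransferase, with -0.54 (adjusted p = 0.000251, limma). Of 16 genes of the carnitine shuttle and fatty acid oxidation, 5 were higher and 6 lower, with Etfb at -0.70 and Acads at -0.54.

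**Figure D5:**
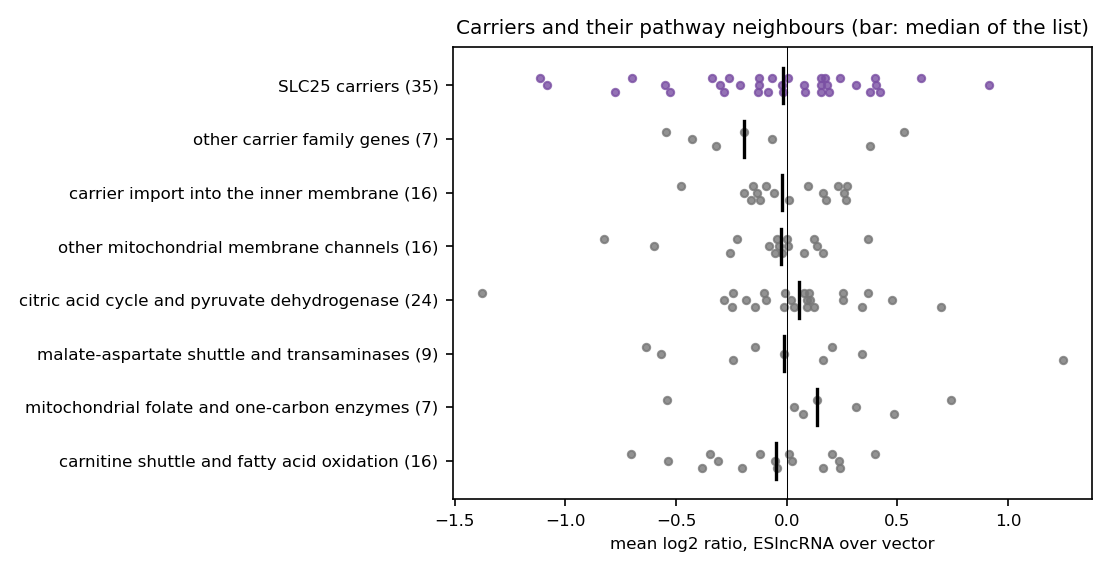
Mean log2 ratio of ESlncRNA over vector (horizontal axis) for the SLC25 genes (top row, purple) and for 7 lists of neighbouring genes (grey); the number of genes measured is in brackets and the bar is the median. The list medians lie between -0.19 and 0.14, and the carriers' is -0.01.

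Promoters, taken from RefSeq on GRCm38.p6 as 250 bases before and 50 after each annotated start, were at hand for 31 of the 40 carriers. Some genes had several starts. Their median GC content was 59.7%, against 52.7% for all promoters. A set of 4 motifs, chosen after the members' values were seen, were searched on both strands. A gene counted when the promoter of any of its starts held the motif. The E-box CACGTG, which reads the same on both strands, was in 7 carriers (22.6%), against 8.09% of 27025 genes. The ETS motif CCGGAAGT was in 1 carrier (3.23%, against 4.31%), the GATA motif AGATAA in 2 (6.45%, against 12.7%) and the palindromic NRF1 motif of 10 letters in 0 of 31 (against 1.07%). Of the 7 genes with CACGTG, 5 were higher (Slc25a1, Slc25a14, Slc25a15, Slc25a33 and Slc25a36), Slc25a13 was lower and Slc25a31 was not kept. Over the 35 carriers measured 14 were higher, and over all genes 26.3%, and the calls of Slc25a15 and Slc25a36 were each lost in 2 of 9 ways of processing. Slc25a14 and Slc25a15 also have a start whose promoter lacks CACGTG. A match is a description of these letters, not a site in use.

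The stretches around CACGTG, of at most 30 bases, are shown because this was the motif of the 4 with the larger share in carriers than in all genes. Capitals mark the motif, and each stretch reads in the direction of its gene. They lie at chr16:17928441-17928469 (minus), chr6:6217281-6217310 (minus), chrX:48623382-48623411 (plus), chr8:22398337-22398366 (minus), chr3:40708766-40708795 (plus), chr4:149774258-149774287 (minus) and chr9:97111211-97111240 (minus) of GRCm38.p6, in the order of the lines.
Slc25a1: cgctccagacgCACGTGtctctaaactgc
Slc25a13: cacagtctgagtCACGTGtcctggcccctc
Slc25a14: tccacctccctcCACGTGacgccccaccca
Slc25a15: cgccctgccgcaCACGTGccgcggctccgg
Slc25a31: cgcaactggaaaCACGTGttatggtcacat
Slc25a33: cccggcctccgcCACGTGacggccgcgcgc
Slc25a36: cccctgggcgatCACGTGaaagaggcgtgc
The motif began 239 bases before the start of Slc25a1 and 8 bases before that of Slc25a33, so it held no fixed place. In the reference annotation the carriers were spread over many chromosomes, with 5 on chromosome 11. Slc25a43 and Slc25a5 are neighbours on chromosome X, and neither passed. Slc25a41, which was not kept, and Slc25a23, which was called lower, are neighbours on chromosome 17.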

How the data were processed

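Per the file headers, the authors quantified the scans with Feature Extraction 10.1.1.1, and the deposited values are spot intensities. Mean signals and median local backgrounds were used, and processed signals served as an alternative. The submitters' processing notes name limma, with no version, for the log2 values the authors deposited. They matched loess ratios of unsubtracted signals made here (r = 0.99996 on both arrays). The authors' deposited log10 ratios served only to check the direction of Cy5 over Cy3.

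Here background was corrected with normexp (offset 50) and arrays were normalized with loess in R 4.3.3 and limma 3.58.1. Control and outlier-marked spots had weight 0. Spots were averaged, and a gene was represented by its kept probe of highest intensity. Of 55681 probes, 26790 were kept because each array had 1 or both channels well above background; for probes in several spots this meant at least 50% of unmarked spots. An intercept model with eBayes was fitted (1 residual and 5.27 prior degrees of freedom); each array pairs the conditions. The fit was run on simulated data with independent noise on each array, and the outcome is not given here. Such data cannot address replicates that may be technical, the lack of a dye swap or the choice of normalisation. Channel values came from loess and Aquantile. "At least N-fold" sets the brighter channel against the lowest signal well above background, or the dim probe's own if higher. Such a bound holds for this processing only, and other processing can give a smaller difference. Symbols came from RefSeq by accession, symbol or older symbol. No spot was saturated, and 2 arrays limit the precision.

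Members and lists were chosen with earlier results of these data known. Both channels' values are given for called carriers past 1.5-fold on both arrays and for the 6 of highest intensity. In each list the 2 genes of smallest p were named by rule, except that 1 such gene and 1 carrier are not reported here, and carriers described beyond that were chosen after their values were seen.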

Additional observations from a re-analysis of the deposited data

How the results depend on the processing

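Besides the settings chosen earlier, 2 readings of the background filter for repeated spots were added after seeing the data, when the number of probes kept was being matched to an earlier analysis of these files. They kept 19882 and 19869 genes, against 19870, and left 14 carriers higher and 11 lower. Carriers called higher numbered 9 with a normexp offset of 0, 25 after median centring and 8 with no replicate block, against 14; carriers called lower numbered 5 after median centring, against 11. The other planned settings gave 10 to 14 higher and 8 to 11 lower, and without the background filter the higher calls included Slc25a2, dim in both channels. The carrier median of -0.01 became 0.14 with processed signals, 0.52 after median centring and 0.042 with both channels required above background. On 1 array alone (without replicate 2 or 1) it was -0.032 to 0.030, and 1 array gives no residual for a test. Signs turned for Slc25a4 (0.60), Slc25a11 (0.20) and Slc25a12 (0.14) after median centring, for Slc25a5 with processed signals (0.031) and median centring (0.77), and for Slc25a3 with processed signals (0.14), median centring (0.76) and without replicate 1 (0.045, against -0.084 without replicate 2). Among the other carriers called lower, Slc25a13 (0.38), Slc25a26 (0.17) and Slc25a39 (0.095) also turned after median centring. The cause was not tested. Each array pairs the 2 conditions, so the block is in the fit reported. Dim probes limit Slc25a23, Slc25a27 and Slc25a29 to bounds.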
